A study of Mus musculus with 6 samples.

Results

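Tissue-specific basic helix-loop-helix (bHLH) genes were examined in the nuclear RNA (nucRNA) of mouse embryonic stem cells (ESCs). They are 40 genes chosen by name: 29 lineage factors of the nervous system, muscle, mesoderm and blood, and 11 genes of the Id, Hes and Hey families, most of which oppose them. Each of the 40 genes has 1 of the 20633 RefSeq entries of the deposited table. All libraries came from the RYBPfl/fl;YAF2-/- line, in which *Yaf2* had been deleted by CRISPR in picked colonies and *Rybp* carries loxP sites for a tamoxifen-inducible Cre recombinase. The 3 untreated libraries (UNT) received no drug, and the 3 OHT libraries came from cells given 800 nM 4-hydroxytamoxifen for 96 hr to delete *Rybp*. UNT and OHT cells thus share the *Yaf2* deletion and the inducible Cre, and were grown with serum and leukemia-inhibiting factor on gelatin.

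A bHLH protein binds DNA as a dimer through its basic region, and its helix-loop-helix holds the dimer together. Lineage factors such as the neurogenins or MYOD1 pair with the broadly expressed E proteins, bind E-box sequences and switch on the genes of their tissue. ID proteins lack the basic region and sequester E proteins in dimers that cannot bind DNA, whereas HES and HEY proteins bind DNA and repress, often in response to Notch. Many lineage factor genes are Polycomb targets in ESCs, where PRC1 and PRC2 help to keep them off. This is why their transcription is of interest in cells that lose RYBP, a stimulating subunit of PRC1.

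The level of each gene was taken from the base mean, the authors' mean of normalised read counts over all 6 libraries, with UNT and OHT pooled. It is a pooled value without an SD or n. Values by group were not analysed here, so no difference between UNT and OHT is given and the spread between replicates of a group is unknown. For genes with few reads, values by library are given below without their group. Base means are given as the read support of a gene. Because a long gene collects more reads, the levels of different genes are compared as base mean per kb of gene span. Over the 19133 entries with a base mean above 0 and a known length, the median was 13.7 per kb (quartiles 1.33 and 51.2).

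The identity of the cells was examined first. The 10 ESC markers, among them *Pou5f1*, *Sox2* and *Nanog*, lay between 66.1 and 2181 per kb, and every one of them was above the median of all entries. Mesoderm markers lay between 1.04 and 11.2 per kb (0 of 5 above the median), and endoderm markers between 0.0494 and 5.80 (0 of 5). Marker levels were divided by gene span only and not by exon length, which matters for long genes. The value of 5.80 was that of *Gata4*, with a base mean of 268.5 on a span of 46327 bp. Fibroblast markers, 2 of 6 above the median, reached 22.0 per kb in *Col1a1*. Of 6 neural markers, 3 were above the median: *Nes* at 82.0 per kb, *Tubb3* at 59.0 and *Neurod1*, itself one of the 40 bHLH genes, at 24.5. Trophoblast markers reached 125 per kb in *Tfap2c*, the 1 of 5 above the median, whereas *Elf5* lay at 0.133. A few cells with much RNA and many cells with little cannot be told apart in such bulk samples. The part of differentiated cells in the values below was not tested. *Yaf2*, of which the first exons are deleted in the line, had 20 reads over all libraries.

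Most of the bHLH genes lay below the median level of all entries. Per kb of span, 10 of the 40 genes exceeded that median: *Id1*, *Id2*, *Id3*, *Id4*, *Hes1*, *Hes6*, *Tcf15*, *Olig1*, *Olig2* and *Neurod1*. The median percentile of the 40 genes was 27.1 per kb. Read support was low, since 22 of the 40 genes had a base mean under 10 normalised reads, against 24.2% of all entries, and 2 exceeded the median base mean of all entries above 0, which was 306.7. These counts are not divided by length, and the bHLH genes are short, with a median span of 2760 bp against 18957 bp in all entries. All 4 Id genes, *Hes1* and *Hes6* lay above the median of all entries per kb, whereas *Hes5*, *Hes7* and all 3 Hey genes lay below it. The median was 16.7 per kb in the 11 Id, Hes and Hey genes (6 of 11 above the median of all entries) and 0.899 per kb in the 29 lineage factors (4 of 29). Together the 40 genes collected 0.0125% of the normalised reads, and the 11 Id, Hes and Hey genes accounted for 56.0% of that sum. Reads left unmapped by STAR were realigned with bowtie2 to gain intronic reads, but whether the counts include introns is not stated in the sources used here. Divided by exon length instead, 6 genes exceeded the corresponding median: *Tcf15*, *Id1*, *Id2*, *Id3*, *Hes1* and *Hes6*.

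**Figure D1:**
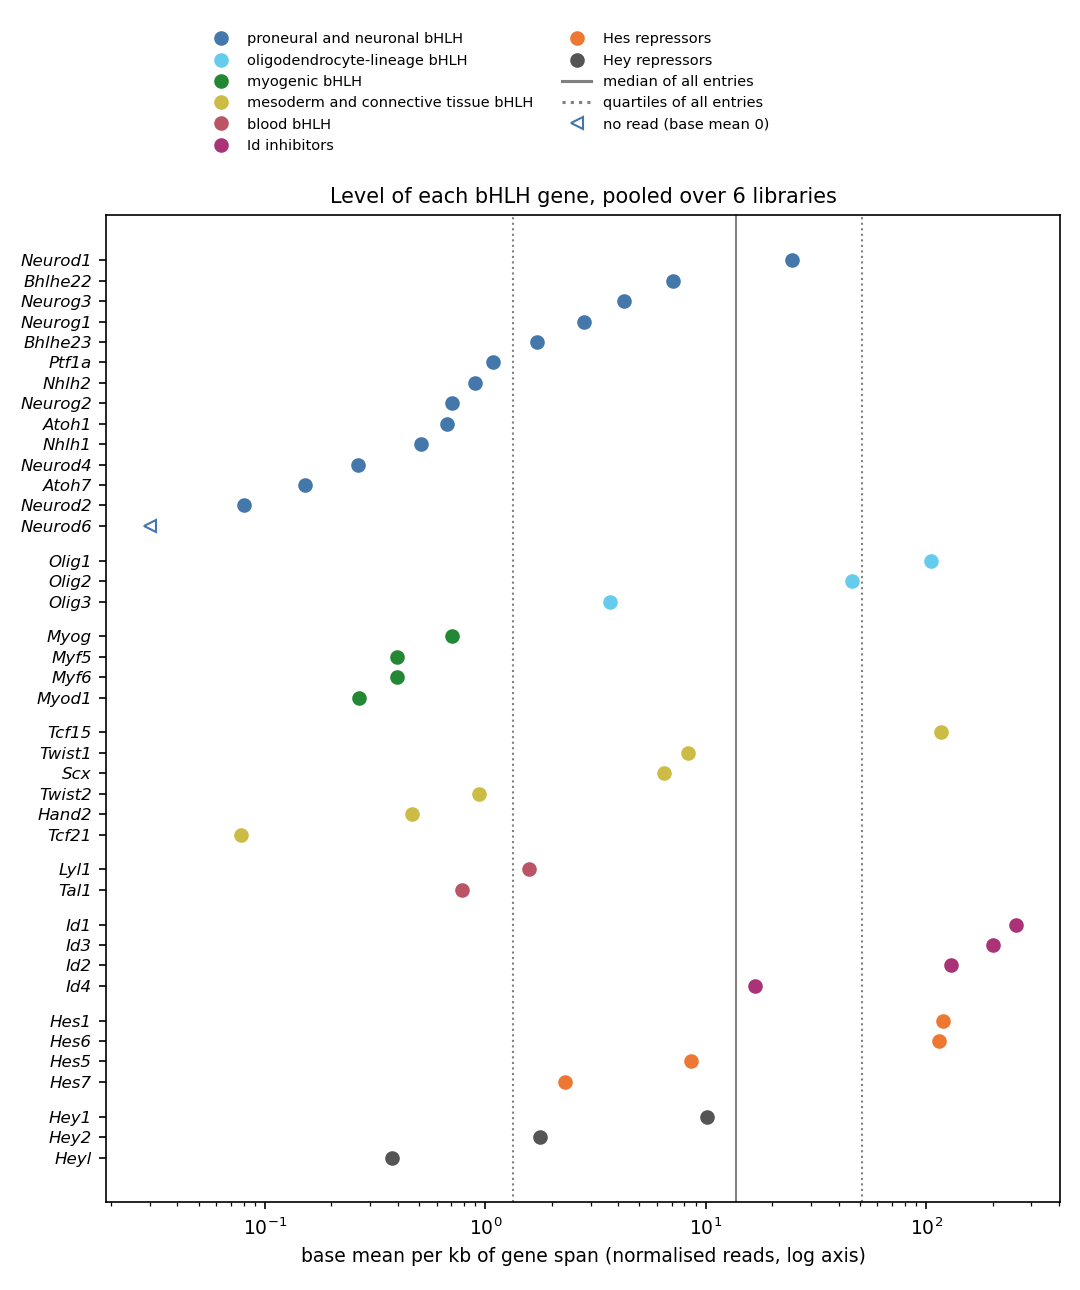
Base mean per kb of gene span (horizontal log axis) for each of the 40 bHLH genes, grouped by role; each point is 1 pooled value over 6 libraries, and the vertical lines mark the median (13.7) and quartiles (1.33 and 51.2) of all entries. *Id1*, *Id3* and *Id2* lie farthest to the right, and the 4 myogenic genes all lie left of the lower quartile.

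The Id genes had the highest levels of the bHLH groups. *Id1* (chromosome 2 of mm10, 152736251 to 152737410, plus strand) had a base mean of 297.7. Its 257 per kb of span, at percentile 96.3 of all entries, was the highest of all 40 genes. By exon length *Tcf15* was higher, at 657 per kb against 319 for *Id1*. *Id3* (chromosome 4, 136143822 to 136145392, plus strand) had a base mean of 380.6 and reached 201 per kb, at percentile 94.7. *Id2* (chromosome 12, 25093799 to 25096092, minus strand) had a base mean of 298.0 and followed with 130 per kb. These 3 genes are known targets of BMP signalling, which in serum opposes neural differentiation of ESCs. *Id4*, the family member best known from the nervous system, stood apart with a base mean of 80.3 and 16.7 per kb, at percentile 53.0. *Id4* overlaps 2 annotated genes of the opposite strand, of which A330033J07Rik has a base mean of 41.4. The order *Id1*, *Id3*, *Id2*, *Id4* holds for exon length too, where the values were 319, 298, 235 and 20.9 per kb. The percentiles by exon length were lower, at 68.2, 66.8, 62.0 and 30.0, so that *Id4* lay below the corresponding median.

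The Hes genes fell into a high and a low pair. *Hes1* (chromosome 16, 30065357 to 30067796, plus strand), the general Notch effector that is also transcribed in ESCs independently of Notch, had a base mean of 292.9 and 119 per kb, at percentile 89.8. *Hes6* (chromosome 1, 91411483 to 91414038, minus strand), which counteracts HES1 and favours neurogenesis, had a base mean of 198.8 and 114 per kb, at percentile 89.3. Per kb of span the 2 genes thus lay within 1 percentile of each other, with the *Hes6* span taken as 1740 bp. Divided by exon length they lay farther apart, at percentile 58.9 for *Hes1* and 53.8 for *Hes6*. *Hes5*, the Notch target of neural progenitors, had a base mean of 12.4 and 8.57 per kb. *Hes7*, the oscillator of the segmentation clock, had a base mean of 8.40 and 2.30 per kb. All 3 Hey genes, Notch targets of heart and vessels, were below the median, at 10.1 per kb for *Hey1*, 1.76 for *Hey2* and 0.379 for *Heyl*, with base means of 39.5, 18.4 and 6.18.

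Among the lineage factors of the mesoderm, *Tcf15* was an exception. It lies on chromosome 2 from 152143056 to 152149097 on the plus strand, 587 kb from *Id1*. *Tcf15* is known from somites and is also transcribed in ESCs, where ID proteins hold its product inactive. It had the highest base mean of the 40 genes, 644.3. Per kb of span it ranked at position 5, with 116 per kb, next to *Hes1* and *Hes6*. Divided by exon length, *Tcf15* had the highest value of the 40 genes, 657 per kb, at percentile 82.9. *Tcf15* alone made up 22.1% of the summed base means of the 40 genes. *Twist1*, a regulator of cranial and limb mesenchyme, had a base mean of 17.9 and 8.28 per kb. Its relative *Twist2* had a larger base mean of 43.6 on a span of 46568 bp, which leaves 0.936 per kb. Divided by exons alone, *Twist2* would lie at 32.8 per kb and *Twist1* at 10.98, so that their order turns with the length used. *Scx*, a tendon factor, had a base mean of 12.5 and 6.46 per kb, but it lies wholly within *Bop1*, a gene of the opposite strand with a base mean of 1355. *Hand2*, a heart and limb factor, had 0.464 per kb, and *Tcf21*, a factor of kidney and heart mesenchyme, had 0.0779.

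The neighbours *Olig1* and *Olig2* were also above the median of all entries per kb of span. Both are factors of the oligodendrocyte lineage, and *Olig2* also acts in motor neuron progenitors. *Olig1* (chromosome 16, 91269769 to 91271939, plus strand) had a base mean of 226.4 and 105 per kb, at percentile 88.1. *Olig2* (chromosome 16, 91225550 to 91228677, plus strand) lies 41.1 kb away and had a base mean of 147.8 and 45.9 per kb, at percentile 72.8. *Olig3*, on chromosome 10, which specifies dorsal neurons, had a base mean of 7.58 and 3.66 per kb. Of the family, *Olig1* and *Olig2* thus exceeded the median of all entries per kb of span and *Olig3* did not. By exon length, *Olig1* and *Olig2* lay below the corresponding median, at percentiles 48.0 and 40.4.

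Of the 14 proneural and neuronal genes, *Neurod1* was the 1 above the median per kb of span. *Neurod1* (chromosome 2, 79452637 to 79456636, minus strand), a factor of neurons and endocrine pancreas, had a base mean of 103.8 and 24.5 per kb, at percentile 59.9. By exon length it lay below the corresponding median, at percentile 35.8. It lies wholly within the annotation of *Cerkl* on its own strand, whose entry has a base mean of 151.5, and how reads of the shared stretch were assigned is not stated. *Bhlhe22*, a factor of cortical and spinal neurons, came next with a base mean of 23.6 and 7.07 per kb. The other 12 genes had base means under 10. The neurogenins *Neurog3*, *Neurog1* and *Neurog2*, which commit progenitors to a neuronal or endocrine fate, reached 4.26, 2.79 and 0.707 per kb. *Neurog3* is wholly overlapped by *Fam241b* on the opposite strand (base mean 112.9). *Bhlhe23*, *Ptf1a*, *Nhlh2*, *Atoh1*, *Nhlh1*, *Neurod4*, *Atoh7* and *Neurod2* followed, from 1.71 down to 0.0800 per kb. *Neurod6*, a marker of cortical excitatory neurons, had a base mean of 0. At 95% confidence, a count of 0 in all libraries allows up to 3 read pairs, which are 6 reads where both mates are counted. These 6 reads would give a base mean of up to 1.51 if they fell in the shallowest library (counting error only).

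The myogenic genes formed the lowest group. *Myod1* and *Myf5*, which commit cells to muscle, had 0.266 and 0.399 per kb. *Myf6* and *Myog*, which act in later differentiation, had 0.398 and 0.703 per kb. *Myf5* and *Myf6* are neighbours on chromosome 10, 5.92 kb apart. Their levels per kb lay within 1 percentile of each other, but rest on only 6 and 4 reads. The blood factors *Tal1* and *Lyl1*, close relatives, had 0.785 and 1.58 per kb. *Lyl1* is wholly overlapped by *Nfix* on the opposite strand, with a base mean of 142.3. In all, 13 of the 40 genes overlap another annotated gene, 3 of them on the same strand, and for 5 the overlapping gene has reads of its own in the table. The libraries were made with a strand-marking kit, but whether the counting used strand is not stated, so reads of overlapping genes cannot be told apart here.

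For genes with few reads, the base mean could be resolved into whole reads. The smallest base means are built from 6 steps, from 0.113 to 0.251, each the value of 1 read in 1 library. The steps give DESeq2 size factors of 1.48, 1.35, 0.984, 0.931, 0.850 and 0.664, so that the deepest library was 2.23 times as deep as the shallowest. The libraries are named A to F from the deepest to the shallowest; which of them is UNT or OHT was not assigned. Of the 3565 entries with a base mean above 0 and under 10, 3558 had exactly 1 set of whole reads that gave the deposited value within 1e-09, and so did all 21 bHLH genes in this range. Of the 80 library values above 0 of these genes, 87.5% were even, against 79.3% of the 12881 values of all entries in the range. Sequencing was paired-end, and a pair gives 2 reads where both mates are counted.

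*Hes7* had 12, 8, 10, 10, 8 and 4 reads in libraries A to F. It was present in every library, and its normalised counts ranged from 5.94 to 10.7. *Lyl1* had 10, 8, 6, 4, 4 and 2 reads in the same order, falling from the deepest to the shallowest library. Its normalised counts still ranged from 6.76 in library A to 3.01 in library F. *Heyl* had 24, 8, 2, 2, 4 and 4 reads, so that library A held 54.5% of its 44 reads. The normalised count of *Heyl* was 16.2 there and its median over the libraries was 5.32.

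*Olig3* had 6, 0, 14, 8, 3 and 10 reads. Its highest count was in library C, of middling depth, and the second deepest library had none. The highest normalised count of *Olig3* was in library F, the shallowest, at 15.1 against 14.2 in library C. *Neurog3* had 3, 11, 0, 8, 5 and 12 reads, with the highest count in the shallowest library. *Neurog1* had 6, 4, 4, 8, 6 and 1 reads and was present in every library. *Neurog2* had 6, 0, 0, 0, 3 and 2 reads, and was thus absent from libraries B, C and D. The levels of *Olig3* and *Neurog3* therefore did not follow depth, and whether treatment had a part in this was not tested.

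*Nhlh2*, a factor of hypothalamic neurons, had 4, 10, 0, 4, 2 and 8 reads. *Bhlhe23*, a factor of retinal interneurons, had 6, 2, 2, 3, 0 and 10. *Neurod4* had 0, 3, 4, 2, 4 and 4, with none in the deepest library. These 3 genes each missed 1 library, a different one in each case. *Nhlh1* had 2, 8, 0, 6, 2 and 0 reads, and *Ptf1a*, a factor of pancreas and inhibitory neurons, had 3, 2, 0, 5, 0 and 2. *Atoh1*, needed for cerebellar granule cells and inner ear hair cells, had 2, 0, 2, 2, 0 and 2, no more than 2 reads in any library.

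*Hand2* had 0, 4, 2, 2, 0 and 2 reads, and *Myog* had 6, 0, 2, 0, 4 and 0. *Myf5* had 6 reads in all, in libraries E and F. *Myf6* had 4 reads, in libraries B and F, and *Myod1* had 6, in libraries A and B. No library had reads of all 4 myogenic genes. *Neurod2*, *Atoh7* and *Tcf21* each rested on 2 reads of 1 library (C, B and A), which may be the 2 mates of 1 read pair. In all, 4 of the 21 genes had reads in every library. At base means from 2 to 5, 1 of 5 bHLH genes had reads in every library, against 18.6% of the 943 entries of that range. From 5 to 10, 3 of 5 did, against 62.6% of 843 entries.

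**Figure D2:**
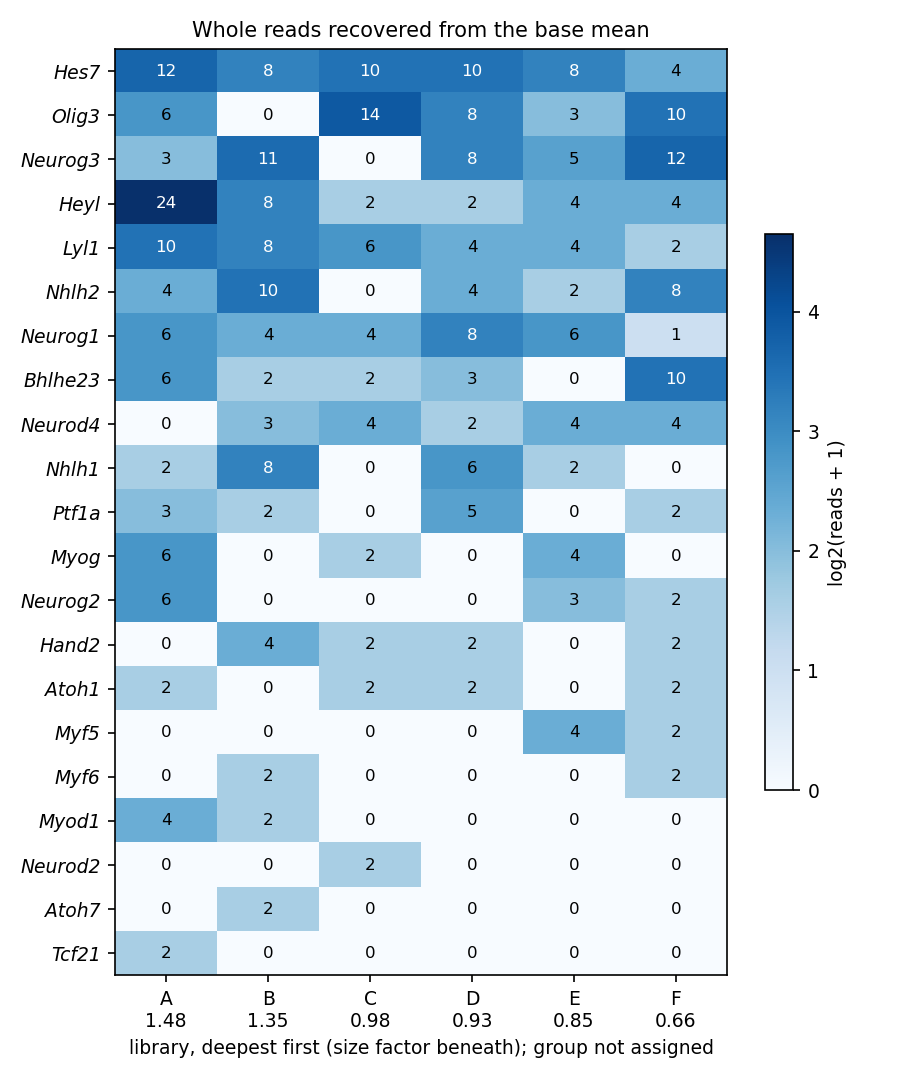
Whole reads of the 21 bHLH genes with a base mean above 0 and under 10 (rows, highest base mean at the top) in the 6 libraries (columns, deepest first, size factor under each letter, group not assigned); numbers are reads and the colour is log2(reads + 1). Only *Hes7*, *Heyl*, *Lyl1* and *Neurog1* have reads in every library.

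Among the partners and upstream signals of these genes, the E proteins and most Notch pathway genes were above the median per kb. The BMP pathway genes divided almost evenly about it. The E proteins *Tcf3*, *Tcf4* and *Tcf12* had base means of 2116, 6774 and 8249, and 87.8, 19.7 and 30.8 per kb, each above the median of all entries. Of 18 Notch pathway genes, 14 were above the median per kb (median 22.4). The genes named here were taken by base mean, which is no order of their levels. The highest base means were those of *Rbpj*, the DNA-binding factor of the pathway (12688, or 125 per kb), and of the receptor *Notch2* (5686, or 41.6 per kb). The lowest were those of the ligand *Dll4* (4.36, or 0.429 per kb) and the coactivator *Maml2* (83.8, or 0.204 per kb). Of 13 genes of the BMP pathway, which raises Id transcription, 7 were above the median per kb (median 22.3). *Bmpr1a* (base mean 5693, 61.9 per kb) and *Bmpr2* (5054, 43.7 per kb) encode receptors and had the highest base means. *Bmp2*, a ligand (13.5, 1.26 per kb), and *Smad9*, a signal transducer (35.9, 0.786 per kb), had the lowest. These lists, like the bHLH genes, are described by counts and medians without a test. Levels in these lists were divided by gene span only and not by exon length.

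**Figure D3:**
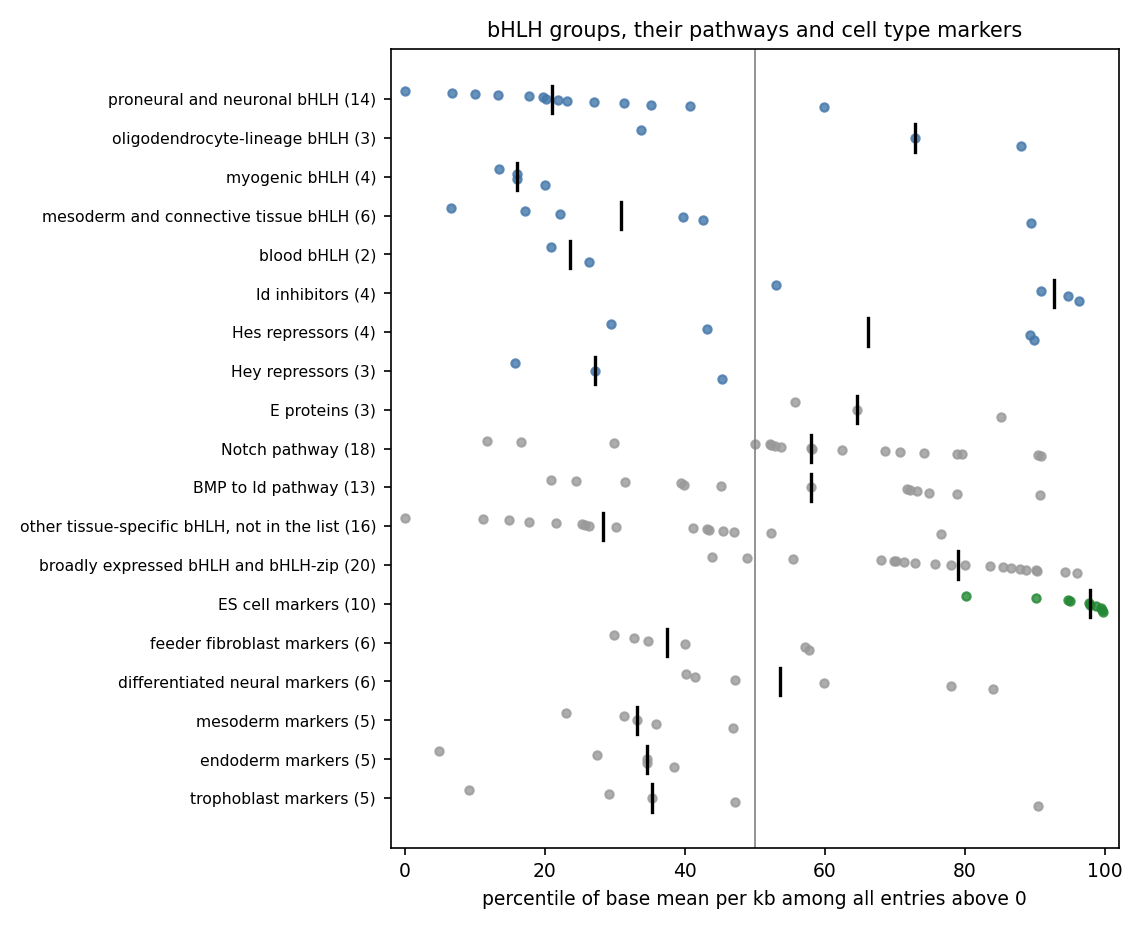
Percentile of the base mean per kb among all entries above 0 (horizontal axis) for the genes of each list; every dot is a gene, black bars are list medians, and the number of genes stands in brackets. The Id genes have a median percentile of 92.8 and the ESC markers of 97.8, whereas the myogenic genes have a median of 16.1.

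Promoters were examined because Polycomb complexes occupy CpG islands, stretches rich in CG dinucleotides (CpG). RefSeq promoters (GRCm38.p6, 250 bases before to 50 bases after the start) were matched for 30 of the 40 genes; *Id1*, *Hes1*, *Olig1* and *Tcf15* are among the 10 without one. The ratio of observed to expected CpG had a median of 0.662 in the 30 promoters and of 0.652 in the 15271 promoters of named entries. A ratio of at least 0.6 was found in 16 of the 30 (53.3%) and in 54.8% of the promoters of named entries. At a base mean of at least 10, the ratio was reached by 10 of the 11 promoters of bHLH genes (90.9%) and by 69.3% of 11520 promoters. The exception was *Hes6* with 0.530. Of the 19 promoters of bHLH genes with a base mean under 10, 6 (31.6%) reached that ratio: *Neurog1*, *Neurod2*, *Atoh1*, *Bhlhe23*, *Ptf1a* and *Hand2*. Among all named entries with a base mean under 10, 9.92% of 3751 promoters did. These base means are not divided by length, and the bHLH genes are short (median span 2760 bp against 18957 bp in all entries). On the same side of 10, the bHLH genes and the other entries may thus differ in level per kb. For 6 of the 30 genes (*Neurog2*, *Nhlh2*, *Myf5*, *Lyl1*, *Hes5* and *Hes7*), the start used for the promoter lies inside the RefSeq gene span. No test was made, since the genes were chosen by name and are not replicates.

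To show this contrast, 3 promoters are given below as the 250 bases before the start, 5′ to 3′ in the sense of the gene, with every CG in capitals. *Id3* is the gene with the highest level among those with a promoter (chr4:136143572-136143821, plus strand, 18 CG), and *Neurod6* is the gene without a read (chr6:55681264-55681513, minus strand, 3 CG). *Neurog1* (chr13:56252181-56252430, minus strand, 29 CG) is rich in CG at a low level.
Id3: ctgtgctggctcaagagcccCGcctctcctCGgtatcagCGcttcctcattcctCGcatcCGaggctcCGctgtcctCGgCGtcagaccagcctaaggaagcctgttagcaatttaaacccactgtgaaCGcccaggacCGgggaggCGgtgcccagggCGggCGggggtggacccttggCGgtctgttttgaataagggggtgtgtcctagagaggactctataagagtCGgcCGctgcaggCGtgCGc
Neurog1: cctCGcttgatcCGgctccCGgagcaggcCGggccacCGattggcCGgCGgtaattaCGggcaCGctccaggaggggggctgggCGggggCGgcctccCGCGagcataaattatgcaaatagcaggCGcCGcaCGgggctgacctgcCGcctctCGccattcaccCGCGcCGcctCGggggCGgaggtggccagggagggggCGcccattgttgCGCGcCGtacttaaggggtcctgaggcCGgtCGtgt
Neurod6: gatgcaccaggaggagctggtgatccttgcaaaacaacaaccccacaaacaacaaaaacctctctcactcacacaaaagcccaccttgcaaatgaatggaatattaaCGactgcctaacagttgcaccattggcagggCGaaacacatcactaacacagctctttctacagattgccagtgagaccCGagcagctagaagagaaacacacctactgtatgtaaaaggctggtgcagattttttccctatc

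The promoter of *Neurog1* thus holds more CG than that of *Id3*, at levels of 2.79 per kb for *Neurog1* and 201 per kb for *Id3*. *Hes5* had the highest ratio of observed to expected CpG of the 30, 1.04, followed by *Id4* with 0.988 and *Hand2* with 0.897. At the other end, *Nhlh1* had 0.0840 and *Nhlh2* 0.143. The E-box, CANNTG on either strand, was found in 19 of the 30 promoters (63.3%) and in 67.3% of the promoters of all named entries. The N-box CACNAG, a site of HES-type repressors, was found on either strand in 11 of 30 (36.7%) against 41.4%. Matches of such short motifs are descriptions of the sequence and do not show binding.

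**Figure D4:**
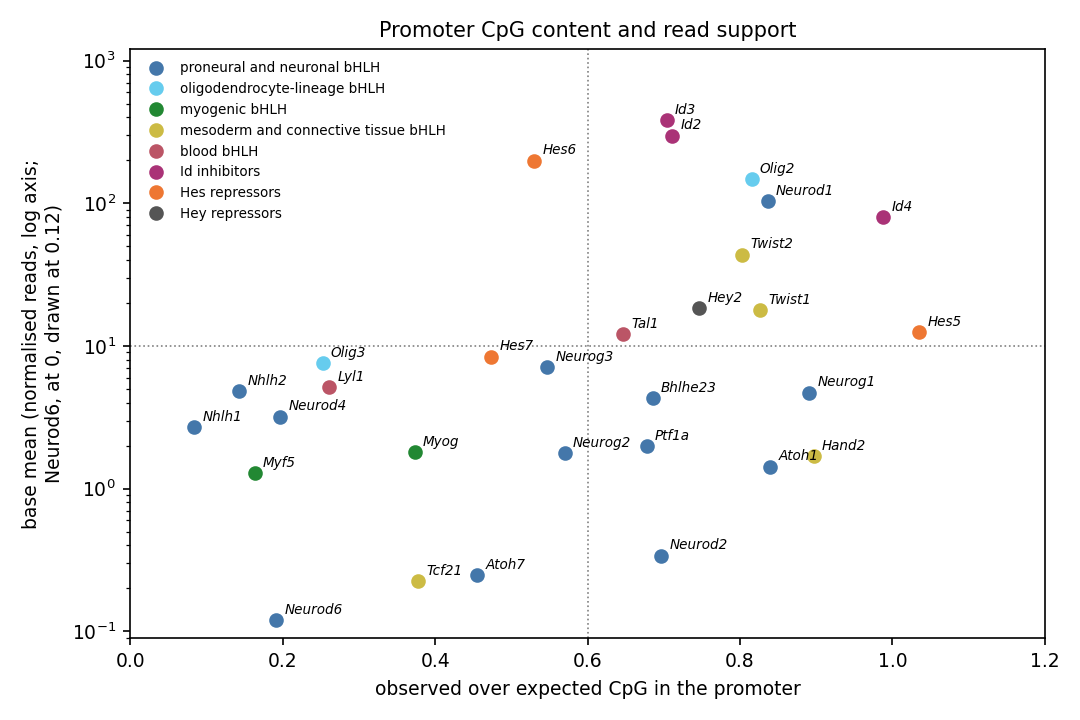
Ratio of observed to expected CpG in the 300-base promoter (horizontal axis) against the base mean (vertical log axis, *Neurod6* at 0 drawn at the bottom) for the 30 bHLH genes with a promoter, coloured by role; dotted lines mark a ratio of 0.6 and a base mean of 10. Above a base mean of 10, *Hes6* is the 1 gene left of the vertical line, and below it the genes spread from 0.0840 to 0.897. Base means are not divided by length.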

How the data were processed

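NucRNA was sequenced by the authors as 40 bp paired-end reads from 3 UNT and 3 OHT libraries. Per the labels and the study's methods, rRNA reads were filtered out with bowtie2, the rest was aligned to mm10 with STAR and then bowtie2, read counts were made with a custom script on a filtered refGene set, and DESeq2 was run with default settings (versions not given in the sources used here). From the deposited table, the base mean was used, a signal that the authors computed as the mean of size-factor normalised counts over all libraries. Its other 6 columns hold the authors' comparison of OHT with UNT (log2 fold change, standard error, statistic, p-values and a threshold flag) and were not used. Counts by library and group were not analysed here, so the planned edgeR test was not run.

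Entries were named through RefSeq (GRCm38.p6), then GENCODE vM21, both in mm10 coordinates: 20560 of 20633 had a symbol. Gene positions are from RefSeq, and spans and exon lengths are those of the GENCODE transcript carrying the RefSeq identifier. Percentiles are the share of entries above 0 with a lower value. For base means under 10, the 6 single-read steps were refined by least squares on 2167 entries, and whole reads were found by enumeration, with a tolerance of 1e-09. This step was tested on simulated data. All 40 genes are named, with 2 highest and 2 lowest genes by base mean of the pathway lists. Members and lists were chosen with earlier results of these data known. Alternatives were the entry kept per symbol, the background, the low-level limit and the length. Python 3.11.15, numpy 2.4.6, pandas 2.3.3 and scipy 1.17.1 were used.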

Additional observations from a re-analysis of the deposited data

How the results depend on the processing

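No paired analysis was possible because the base mean pools UNT with OHT. The alternatives planned for counts (a DESeq2 fit, no filter, a replicate block, 1 replicate left out at a time) could not be fitted either. How stable the levels are between replicates of a group is unknown. The count of bHLH genes with a base mean under 10 (22) stayed within 1.5 times at limits of 5 (17 genes) and 20 (27 genes), and did not change with the lowest or the summed entry per symbol. The number above the median base mean was 2, and became 5 with entries at 0 in the background and 1 with a background of base means of at least 10. The median percentile of the bHLH genes moved from 16.6 to 22.4 and 0 under the same backgrounds. Above the median per kb were 10 genes by gene span, 6 by exon length and 2 without division by length. Each gene has 1 entry, so the choice of entry moved the background alone. Whole reads could be assigned at base means under 10 only, and for the other 18 genes the values by library are unknown.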

Other observations

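Further bHLH genes were examined as 2 lists, per kb of gene span only. Of 16 other tissue-specific bHLH genes, 2 were above the median of all entries per kb (median 2.03 per kb), and 7 had a base mean under 10, against 22 of the 40 genes of the report. The highest base means among them were those of *Sohlh2*, a factor of germ cells (241.3, or 8.64 per kb), and *Msc*, a repressor of muscle and B-cell genes (146.6, or 55.4 per kb). The lowest were those of *Ferd3l*, a neural factor at 0, and *Msgn1*, a factor of presomitic mesoderm (0.113, the value of 1 read in the deepest library). By contrast, 18 of 20 broadly expressed bHLH and bHLH-zipper genes were above the median, with a median of 62.3 per kb. *Mga*, a partner of MAX in a variant PRC1 complex, had a base mean of 13689 and 189 per kb, and *Srebf2*, a regulator of sterol synthesis, had 7143 and 123 per kb. *Mycl* (236.8, 36.2 per kb) and *Myc* (262.5, 52.9 per kb) had the lowest base means of this list, and both exceeded the median per kb.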
